A study of Homo sapiens with 2 samples.

Results

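The 9 genes described here encode core parts of the PI3K, AKT and mTOR signaling pathway, and they were chosen by name from the 61806 genes of the deposited count table. They are the PI3K subunit genes PIK3CA, PIK3CB and PIK3R1, the kinase genes PDPK1, AKT1, AKT2 and MTOR, the mTOR complex gene RICTOR and the transcription factor gene FOXO3. All 9 were found in the count table and in both FPKM tables. The choice was by name, but earlier results of these data were known when it was made. They were measured in HEL, a human erythroleukemia cell line labelled as wild type, after 24 h with 1 µM L1, a synthetic derivative of 3,3′-diindolylmethane, or with 0.5% DMSO as the vehicle. Each condition had 1 library of poly(A) RNA captured on beads. The study asked in this cell line whether L1 acts on the FLI1/AKT pathway, and mRNA levels give no measure of the phosphorylation by which these kinases are switched on.

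In this pathway, activated receptors recruit PI3K, a lipid kinase made of a catalytic and a regulatory subunit, which forms the membrane lipid PIP3. PDK1, the product of PDPK1, and AKT bind PIP3, and PDK1 then phosphorylates AKT in its activation loop. The kinase mTOR works in a pair of complexes: mTORC1, which controls protein synthesis and autophagy, and mTORC2, which contains RICTOR and phosphorylates AKT in its tail. Active AKT phosphorylates FOXO3 and keeps it out of the nucleus, and blood cell progenitors depend on this route for survival signals from cytokine receptors.

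The libraries held 32556872 counts (DMSO) and 27135647 counts (L1), and counts were scaled by the TMM method of edgeR and are given as CPM, the counts relative to the scaled library size. Each single gene is given with its log2 ratio of L1 over DMSO and the exact 95% Clopper-Pearson interval of the split of its counts, which covers counting error only. With 1 library per condition there is no replicate check, and the differences between the libraries were not tested. In RNA from a whole culture, fewer cells of a type and less RNA per cell cannot be told apart. All 12 erythroid marker genes were detected in both libraries, with a summed level of 1879 CPM (DMSO) and 2639 CPM (L1), and 5 of 6 megakaryocytic markers summed to 1742 and 1601 CPM. Of 6 lymphoid markers 5 were at 0, and of 6 epithelial markers 3 were at 0 in both libraries. The lymphoid markers summed to 3.53 and 2.17 CPM, the epithelial ones to 24.6 and 22.3 CPM, and the 6 fibroblast markers to 1.06 and 1.23 CPM.

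Of the 9 genes, PDPK1 alone differed by 2-fold or more between the libraries, with a level in L1 of 0.267 times that in DMSO. AKT1, FOXO3 and MTOR were higher in L1 by 1.41-fold, 1.28-fold and 1.16-fold, and AKT2 was at 0.923 times its DMSO level. The intervals of PIK3CA, PIK3CB, PIK3R1 and RICTOR included a log2 ratio of 0. The median log2 ratio of the 9 genes was -0.012, beside -0.028 for the 12365 genes with at least 100 counts in the higher library, a minimum that all 9 passed. Among those 12365 genes, 6.05% differed by at least 2-fold in either direction, 3.13% higher in L1 and 2.92% lower, and the 1 of 9 seen here is 11.1%. For 4.13% of them the whole interval lay past 2-fold, as it did for PDPK1. The interval left out 0 for 67.1% of them and for 5 of the 9 genes, 3 above 0 and 2 below, so at this depth an interval without 0 does not set a gene apart.

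**Figure D1:**
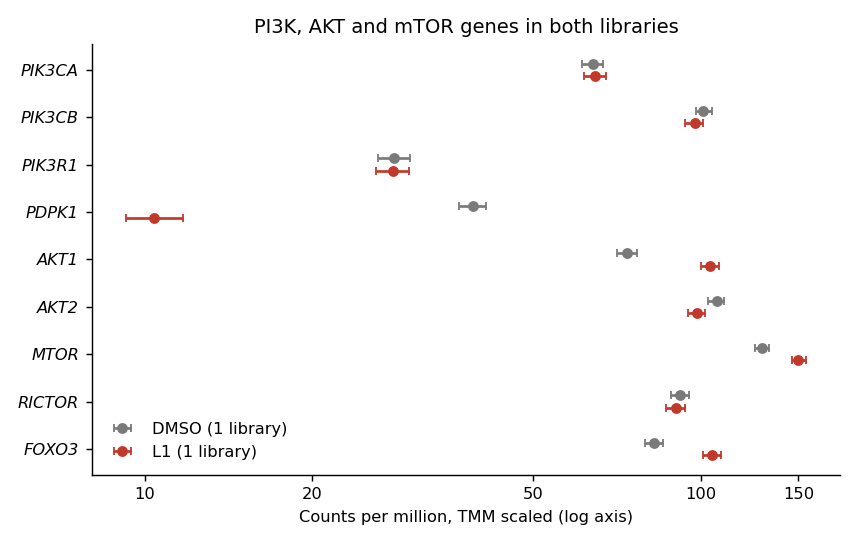
Level of each of the 9 genes in CPM scaled by TMM (log axis) in the DMSO library (grey) and the L1 library (red), with exact 95% counting intervals as bars. PDPK1 lies at 38.9 CPM in DMSO and 10.4 CPM in L1, while the points of PIK3CA, PIK3CB, PIK3R1 and RICTOR lie close together with overlapping bars.

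**Figure D2:**
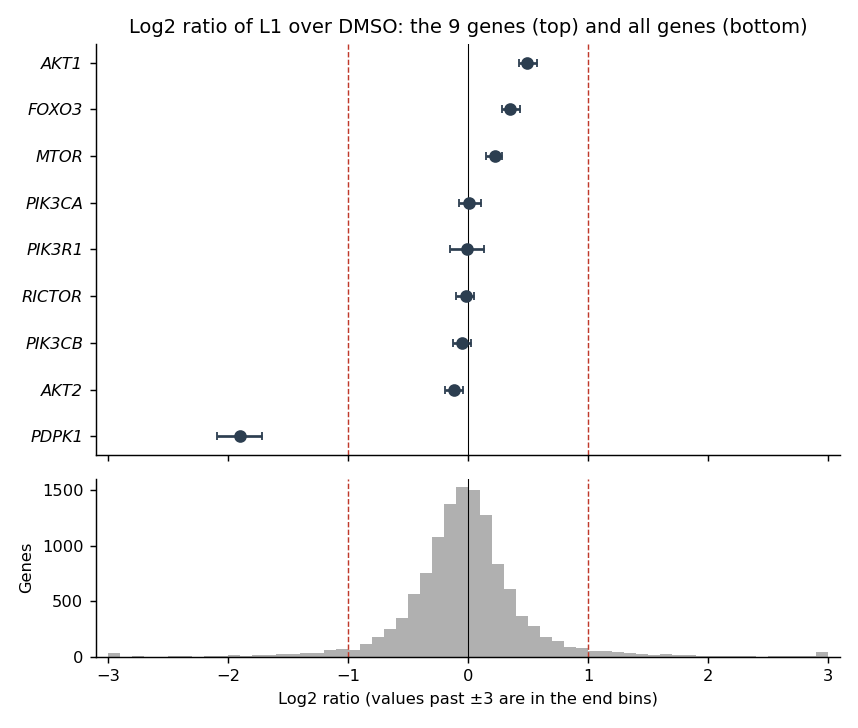
Log2 ratio of L1 over DMSO of the 9 genes with 95% counting intervals (top) and the number of genes in bins of the same ratio over the 12365 genes with at least 100 counts (bottom); dashed lines mark 2-fold. PDPK1 at -1.90 lies beyond the lower line, and the other 8 lie between -0.12 and 0.49.

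The catalytic PI3K subunits, which carry the lipid kinase activity, had like levels in both libraries. PIK3CA (ENSG00000121879; chr3:179148114-179240093, plus strand, GRCh38) encodes the alpha isoform and had 2046 counts in DMSO and 1781 in L1, or 63.9 and 64.5 CPM, with a log2 ratio of 0.01 (-0.08 to 0.11). PIK3CB (ENSG00000051382; chr3:138652699-138834938, minus strand) encodes the beta isoform and had 3242 and 2694 counts, or 101 and 97.6 CPM, with a log2 ratio of -0.05 (-0.13 to 0.02). PIK3R1 (ENSG00000145675; chr5:68215720-68301821, plus strand) encodes the regulatory subunit p85 alpha, which holds the catalytic subunit and binds phosphorylated receptors. Its 900 and 770 counts gave 28.1 and 27.9 CPM and a log2 ratio of -0.01 (-0.15 to 0.13), the widest interval among these 3 genes. Differences within these intervals cannot be told from counting error. The intervals set no bound on differences between separate cultures, which were not compared.

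Per length, on the scale of the deposited FPKM, PIK3CB had the largest share among the class I catalytic genes. The gene lengths behind these FPKM are not given, and the shares depend on them. In DMSO, PIK3CB had 101 CPM over 7850 exon bases in GENCODE and PIK3CA 63.9 CPM over 9494, a smaller gap than in FPKM. It took 50.9% of the summed FPKM of PIK3CA, PIK3CB, PIK3CD and PIK3CG in DMSO and 51.2% in L1. PIK3CG, the gamma isoform that works with G protein-coupled receptors in blood cells, took 23.3% and 22.0%, PIK3CA 14.6% and 15.4%, and PIK3CD, the delta isoform of leukocytes, 11.2% and 11.4%. The sum was 25.6 FPKM in DMSO and 24.5 in L1, so the make-up of this family was nearly the same in both libraries. Of the regulatory subunits with a deposited FPKM, PIK3R1 stayed at 1.73 and 1.72 FPKM while PIK3R3, which encodes p55 gamma, was at 2.12 and 3.89 FPKM. PIK3R2 has no deposited FPKM, so the make-up of the whole regulatory family is not given.

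PDPK1 (ENSG00000140992; chr16:2537964-2603188, plus strand, GRCh38) had 1244 counts in DMSO and 287 in L1, or 38.9 and 10.4 CPM. The log2 ratio was -1.90 (-2.09 to -1.72), and the fold of L1 over DMSO was 0.267 (0.234 to 0.304). Of the 12365 genes with at least 100 counts, 79 (0.639%) had a lower ratio. PDK1 is the kinase for the activation loop of AKT and of other AGC kinases, among them SGK, S6K and RSK, so this gene stands between PI3K and AKT in the pathway.

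PDPK1 has a near-identical copy, the transcribed pseudogene PDPK2P (chr16:2616121-2643296, minus strand), which lies downstream on the same chromosome. Of the 1668 coding bases of PDPK1, 1102 (66.1%), from coding base 24 to 1125, aligned to a transcript of PDPK2P with 1 mismatch, an identity of 99.9%. The window around this mismatch is shown for both genes because it is the place in the shared coding sequence where a read can be told apart, with the differing base in capitals. A stretch just after the shared part is shown as an example of PDPK1 sequence that the copy lacks. The sequences are from GENCODE release 29 (GRCh38) transcripts, 5′ to 3′: coding bases 166 to 285 at chr16:2557844-2557963 (plus strand) in PDPK1, the matching bases at chr16:2642229-2642348 (minus strand) in PDPK2P, and coding bases 1126 to 1185 at chr16:2586676-2586735 (plus strand).
PDPK1: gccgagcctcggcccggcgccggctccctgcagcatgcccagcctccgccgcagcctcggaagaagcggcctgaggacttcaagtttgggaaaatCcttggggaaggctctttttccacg
PDPK2P: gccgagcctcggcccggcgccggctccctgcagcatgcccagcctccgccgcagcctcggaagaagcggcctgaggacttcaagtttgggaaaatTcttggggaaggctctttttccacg
PDPK1, not shared: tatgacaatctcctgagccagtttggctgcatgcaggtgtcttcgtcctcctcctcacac

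The counts on the copy were low and nearly the same in both libraries. PDPK2P had 64 and 62 counts, and PDPK1 with the copy added gave 1308 and 349 counts and a log2 ratio of -1.69 (-1.87 to -1.52). In all, 52.7% of the 31-base words of PDPK1 transcripts occur in transcripts of another gene in either orientation, and 30.3% in the same orientation. The genes that share at least 300 of these words are PDPK2P, AC141586.1, ERVK13-1 and the antisense genes AC141586.3 and AC093525.7, whose exons overlap those of PDPK1 by 1838 and 748 bases. Together these 5 genes had 15.1 CPM in DMSO and 15.9 CPM in L1, higher in L1 by 0.772 CPM, while PDPK1 was at 38.9 and 10.4 CPM. With both antisense genes added, PDPK1 had a log2 ratio of -1.55 (-1.71 to -1.39), and with all 5 genes added it had 1727 and 725 counts and a log2 ratio of -1.04 (-1.17 to -0.91). The last interval reaches across 2-fold. How reads that match several places were counted, and whether counting used strand, is not given in the sources used here, so the reads of PDPK1 and those of its antisense genes cannot be told apart. The part of read assignment in the ratio of PDPK1 was not tested.

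The neighbours of PDPK1 were looked at after its value was seen. Its nearest protein-coding neighbours with at least 100 counts were ATP6V0C with 1487 and 2493 counts (log2 ratio 0.96), AMDHD2 with 529 and 336 counts (-0.44), KCTD5 with 1981 and 1622 counts (-0.08) and SRRM2 with 12739 and 16058 counts (0.55). None of these 4 genes was lower in L1 by as much as 2-fold.

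**Figure D3:**
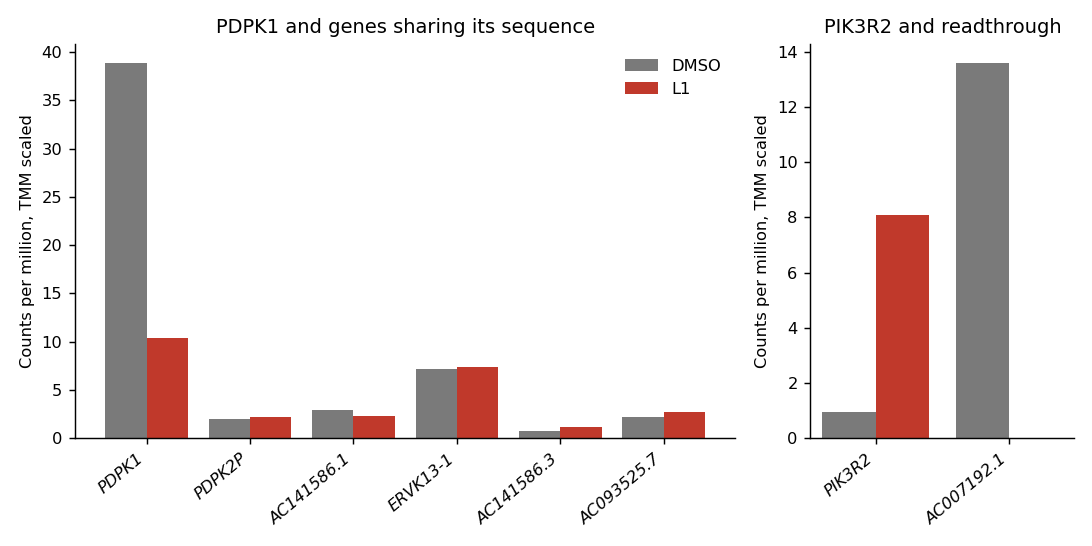
Bars of CPM scaled by TMM in DMSO (grey) and L1 (red), from 0 and without error bars, for PDPK1 and the 5 genes that share its sequence (left) and for PIK3R2 and the readthrough gene AC007192.1 (right). PDPK1 differs between the libraries far more than any gene that shares its sequence, and the bars of PIK3R2 and AC007192.1 differ in opposite directions, with AC007192.1 at 0 in L1.

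AKT1 was higher in L1, while AKT2 was slightly lower. AKT1 (ENSG00000142208; chr14:104769349-104795751, minus strand, GRCh38), the most broadly expressed AKT kinase, had 2357 counts in DMSO and 2865 in L1, or 73.7 and 104 CPM. Its log2 ratio was 0.49 (0.42 to 0.57), a fold of 1.41 (1.33 to 1.49), and 90.5% of the genes with at least 100 counts had a lower ratio. AKT2 (ENSG00000105221; chr19:40230317-40285536, minus strand), the isoform best known from insulin signaling, had 3415 and 2720 counts, or 107 and 98.5 CPM, with a log2 ratio of -0.12 (-0.19 to -0.04). Of the genes with at least 100 counts, 39.3% had a lower ratio than AKT2, and 28.3% had a ratio of smaller absolute size. AKT1 overlaps the antisense gene AL583722.2 by 663 exon bases. AL583722.2 had 120 and 76 counts, and the sum with AKT1 gave 0.46 (0.38 to 0.54).

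Per length, AKT1 and AKT2 were level in DMSO and apart in L1. They stood at 6.77 and 6.76 FPKM in DMSO, nearly equal shares of their sum. In L1 they stood at 9.54 and 6.24 FPKM, or 60.5% and 39.5% of the sum. The sum of both genes was 13.5 FPKM in DMSO and 15.8 in L1.

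MTOR was slightly higher in L1, and RICTOR had the same level in both libraries within counting error. MTOR (ENSG00000198793; chr1:11106535-11262507, minus strand, GRCh38) encodes the kinase of both mTOR complexes and had 4136 counts in DMSO and 4146 in L1, or 129 and 150 CPM, with a log2 ratio of 0.22 (0.15 to 0.28). RICTOR (ENSG00000164327; chr5:38937919-39074408, minus strand) encodes the scaffold of mTORC2 and had 2936 and 2490 counts, or 91.7 and 90.2 CPM, with a log2 ratio of -0.02 (-0.10 to 0.05). RPTOR, the scaffold of mTORC1, had 2984 and 2288 counts and a log2 ratio of -0.17 (-0.25 to -0.09). RICTOR therefore took 42.8% of the summed FPKM of both scaffolds in DMSO and 45.3% in L1. The antisense gene MTOR-AS1, which overlaps exons of MTOR, was at 0 in both libraries, and OSMR, which overlaps RICTOR by 229 exon bases on the other strand, had 778 and 583 counts. RICTOR with OSMR added had a log2 ratio of -0.06 (-0.13 to 0.01).

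FOXO3 was higher in L1. FOXO3 (ENSG00000118689; chr6:108559835-108684774, plus strand, GRCh38), a transcription factor that AKT phosphorylates and that activates genes of cell cycle arrest, apoptosis and stress defence, had 2638 counts in DMSO and 2906 in L1, or 82.4 and 105 CPM. Its log2 ratio was 0.35 (0.28 to 0.43), a fold of 1.28 (1.21 to 1.35). Of its 31-base words 34.9% occur in transcripts of other genes, and 18.2% in those of the processed pseudogene FOXO3B (chr17:18670946-18672873, minus strand). FOXO3B had 467 and 463 counts and a log2 ratio of 0.20 (0.01 to 0.39), and FOXO3 with this copy added gave 0.33 (0.26 to 0.40). Among the FOXO factors, FOXO3 made up 77.3% of the summed FPKM in DMSO and 71.6% in L1, while FOXO4 made up 20.2% and 26.9% and FOXO1 2.53% and 1.46%.

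**Figure D4:**
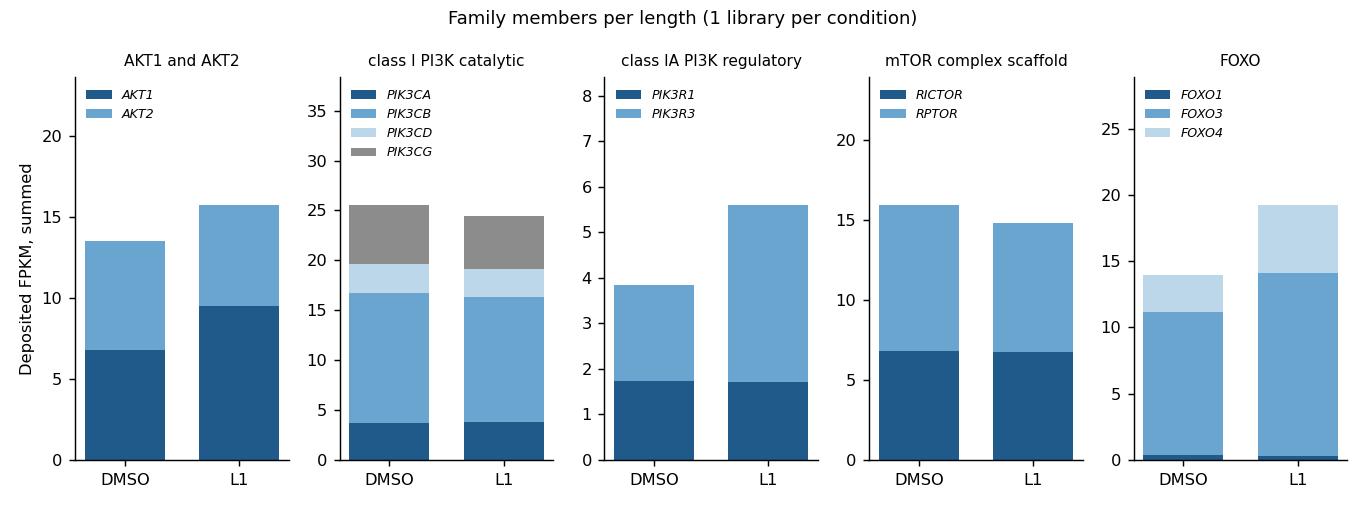
Deposited FPKM of family members stacked from 0 in the DMSO and L1 libraries, for AKT1 and AKT2, the class I PI3K catalytic subunits, the regulatory subunits with a deposited FPKM, the scaffolds of both mTOR complexes and the FOXO factors. The AKT1 part is about as large as the AKT2 part in DMSO and is 60.5% of the sum in L1. PIK3CB takes 50.9% (DMSO) and 51.2% (L1) of its family. PIK3R3 adds most of the difference among the regulatory subunits shown, which leave out PIK3R2.

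Ordered per length, PIK3CB was highest in DMSO with 13.0 FPKM, ahead of FOXO3 with 10.8 and MTOR with 9.73. RICTOR with 6.82, AKT1 with 6.77 and AKT2 with 6.76 FPKM followed, and their counting intervals overlapped. PIK3CA with 3.74 and PDPK1 with 3.59 FPKM also overlapped, and PIK3R1 was lowest with 1.73. In L1 the order was FOXO3 with 13.8, PIK3CB with 12.5, MTOR with 11.3 and AKT1 with 9.54 FPKM, each apart from the next. RICTOR with 6.71 and AKT2 with 6.24 overlapped, PIK3CA had 3.78 and PIK3R1 1.72, and PDPK1 was last with 0.959 FPKM. On the deposited FPKM scale alone, PDPK1 thus stood beside PIK3CA in DMSO and below PIK3R1 in L1. The intervals in this order cover counting error and not errors in the gene lengths, and FPKM ratios between the libraries equal the count ratios times 1 constant, so they are no second measurement.

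The genes of the pathway around these 9 were described from 11 lists that hold 139 genes, of which 129 had at least 10 counts in at least 1 library. Over lists, ratios carry a prior count of 2. Past 2-fold were 8 genes higher in L1 and 2 lower, 7.75% of the 129, beside 12.0% in either direction, 7.12% higher and 4.83% lower, of all 18123 genes with as many counts. The median log2 ratio of the pathway genes was 0.017, beside -0.004 for all genes, and 66 of them lay above 0 and 63 below, beside 8998 above and 9125 below among all 18123 genes. With at least 100 counts, 6 of 117 were past 2-fold higher and 0 were past 2-fold lower, beside 3.13% higher and 2.92% lower of the 12365 genes with as many counts. Among the 6, PIK3R2 changes direction when its overlapping gene is added. No test of the lists was run.

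These 6 genes have different roles. LARP1, an RNA-binding protein that mTORC1 controls and that represses translation of ribosomal protein mRNAs, had 6817 counts (DMSO) and 16438 counts (L1), a log2 ratio of 1.48. TXNIP, a FOXO target that restrains glucose uptake, had 1005 and 2383 counts (1.46), and CDKN1A, which encodes the cell cycle inhibitor p21 and is an AKT substrate, had 140 and 267 counts (1.14, interval 0.84 to 1.45). INPP4B, a phosphatase of PI3K lipids, had 535 and 992 counts (1.10), and KIT, the receptor for stem cell factor, had 8361 and 14979 counts (1.05, interval 1.02 to 1.09). The sixth was PIK3R2, a regulatory PI3K subunit whose exons another gene overlaps.

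**Figure D5:**
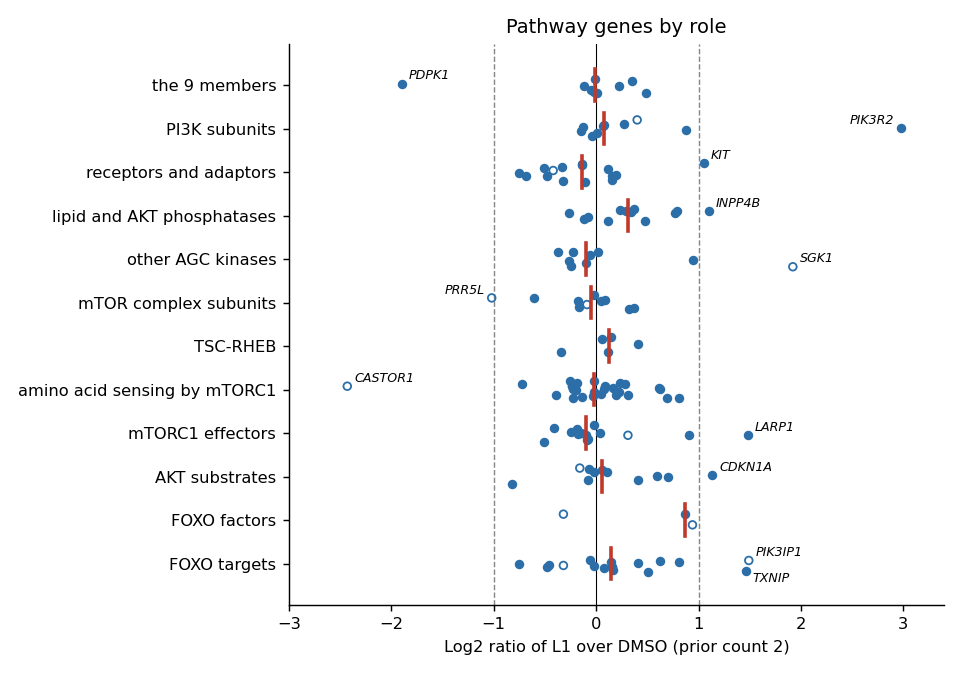
Log2 ratio of L1 over DMSO (prior count 2) of the 9 genes (the 9 members, top row) and of the genes of each pathway list with at least 10 counts; filled points have at least 100 counts in the higher library, open points fewer, red bars are list medians and dashed lines mark 2-fold. Most points lie within 1 log2 unit of 0, and PDPK1, CASTOR1 and PRR5L are the points past the lower line.

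By role, the phosphatases that act against PI3K and AKT had the highest median among the lists with more than 3 genes, 0.313. All 12 had at least 100 counts, and 9 of them lay above 0, beside 5736 of the 12365 genes with as many counts. Past 2-fold was 1 of the 12 (8.33%), beside 6.05% of those genes. INPP4B was highest, and PHLPP1, which dephosphorylates AKT, was lowest with 453 and 323 counts (log2 ratio -0.27). The receptors and adaptors had a median of -0.143. Of 15 genes, 10 lay below 0, beside 9125 of all 18123 genes, and KIT (6.67%) was past 2-fold, beside 12.0%. IRS2, the adaptor of insulin and cytokine receptors, was lowest with 163 and 83 counts (-0.76). The mTORC1 effectors had a median of -0.095. Of 14 genes, 10 lay below 0 and LARP1 (7.14%) was past 2-fold, beside the same values of all genes. EIF4B, a translation initiation factor phosphorylated by S6K, was lowest with 34044 and 20651 counts (-0.51).

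The other AGC kinases, most of them PDK1 substrates like AKT, had a median of -0.104 over 9 genes. Among those with at least 100 counts, PKN2 was highest with 1141 and 1904 counts (log2 ratio 0.95) and PRKCD lowest with 1250 and 833 counts (-0.37). SGK1, a close relative of AKT, had only 27 and 93 counts. It was the 1 gene of this list past 2-fold (11.1%), higher in L1, beside 12.0% of all genes. The mTOR complex subunits had a median of -0.053 over 10 genes, between TTI1, a factor of complex assembly, with 1761 and 993 counts (-0.61) and MAPKAP1, which encodes the mTORC2 subunit SIN1, with 2312 and 2581 counts (0.37). PRR5L, the 1 gene of this list past 2-fold (10.0%, beside 12.0% of all genes), was lower in L1 with 21 and 8 counts. Its interval of -2.56 to 0.05 includes 0.

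The TSC and RHEB genes, which relay AKT signals to mTORC1, had a median of 0.122 over 5 genes and none past 2-fold, from TBC1D7 at -0.34 to RHEBL1 at 0.41. The 28 genes of amino acid sensing had a median of -0.020, from RRAGD at -0.73 to SESN3 at 0.82 among those with at least 100 counts, and CASTOR1, the arginine sensor, had 22 and 2 counts. The AKT substrates had a median of 0.060 over 11 genes, with TBC1D1, a regulator of glucose transporter traffic, lowest at 2969 and 1454 counts (-0.82). FOXO4, the 1 FOXO factor of its list with at least 100 counts, had 341 and 539 counts (0.87). The FOXO targets had a median of 0.146 over the 17 of 22 genes with at least 10 counts. Of these, 11 lay above 0 and 6 below, beside 8998 above and 9125 below of all 18123 genes. TXNIP and PIK3IP1 (34 and 86 counts) were past 2-fold, both higher in L1, 11.8% beside 12.0% of all genes. IRS2, given above among the receptors and adaptors, is also a FOXO target and was the lowest of this list (-0.76). The PI3K subunits outside the 9 genes had a median of 0.077 over 10 genes, with PIK3CG lowest at -0.15.

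Nearest to PDPK1 among the pathway genes by log2 ratio were CASTOR1, PRR5L and TBC1D1, and SOD2 (0.51) and PINK1 (0.41) were among the 3 nearest to AKT1. This likeness is over 1 ratio between 1 library of each condition. With -0.82, TBC1D1 was the pathway gene outside the 9 with the lowest ratio among those with at least 100 counts, still well above -1.90 for PDPK1.

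PIK3R2, which encodes the regulatory subunit p85 beta, had 31 counts with DMSO and 223 with L1. The log2 ratio of 3.06 (2.51 to 3.65) was the largest among the pathway genes with at least 100 counts. It lies at chr19:18153118-18170540 (plus strand, GRCh38), and the readthrough gene AC007192.1 (chr19:18153158-18178117, same strand) covers 3947 of its exon bases. AC007192.1 had 436 counts (DMSO) and 0 counts (L1). For PIK3R2, 86.5% of its 31-base words occur in transcripts of another gene. Added together, both genes had 467 and 223 counts and a log2 ratio of -0.85 (-1.09 to -0.62), so the direction turns when the overlapping gene is included, and the part of read assignment in the ratio of PIK3R2 was not tested. In GENCODE release 29, none of the 9 genes has an exon overlap with another gene on its own strand. The 3552 gene identifiers outside that release could not be searched. PIK3CA overlaps KCNMB3 by 3403 exon bases on the other strand. KCNMB3 had 317 and 229 counts, and the sum with PIK3CA gave a log2 ratio of -0.02 (-0.11 to 0.07). The chromosome 22 pseudogenes KCNMB3P1 and AP000547.1, which share words with PIK3CA transcripts, had 0 and 13 counts and 0 and 0 counts.

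The promoters were read because FLI1, the factor that the study set upstream of AKT, is an ETS factor, and because FOXO3 acts on DNA. Windows of 250 bases before the first RefSeq start of each gene were searched on both strands. The ETS motif CCGGAA or its reverse complement TTCCGG occurs in the windows of PDPK1, PIK3CA and RICTOR, 3 of the 9 genes, and in 14.8% of 27305 such windows. Other forms of the ETS motif were not searched, so a window without CCGGAA may hold one. The shorter letters GGAA occur unmarked in both windows printed below. The FOXO motif TGTTTAC or its reverse complement GTAAACA occurs in the window of PIK3CA, 1 of the 9 genes, and in 2.98% of all windows. The RefSeq starts differ from the GENCODE gene starts for all 9 genes. Of the PIK3CA window 243 bases lie inside the GENCODE gene, as do both of its matches, and the match of RICTOR also lies inside the gene. Only the match of PDPK1, whose first base is 186 bases before the RefSeq start, lies before the start in both annotations, although 57 bases of that window are inside the GENCODE gene. The windows of PDPK1 and AKT1, the genes with the lowest and the highest ratio, are from RefSeq (GRCh38.p14). They are printed 5′ to 3′ on the strand of the gene, with the motif CCGGAA in capitals: chr16:2537771-2538020 (plus strand) and chr14:104795749-104795998 (minus strand).
PDPK1: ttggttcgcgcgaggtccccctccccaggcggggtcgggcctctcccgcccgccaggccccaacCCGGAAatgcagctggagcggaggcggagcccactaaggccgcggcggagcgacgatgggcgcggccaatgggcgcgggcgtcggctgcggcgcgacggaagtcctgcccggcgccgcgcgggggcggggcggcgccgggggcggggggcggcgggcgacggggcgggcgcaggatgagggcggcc
AKT1: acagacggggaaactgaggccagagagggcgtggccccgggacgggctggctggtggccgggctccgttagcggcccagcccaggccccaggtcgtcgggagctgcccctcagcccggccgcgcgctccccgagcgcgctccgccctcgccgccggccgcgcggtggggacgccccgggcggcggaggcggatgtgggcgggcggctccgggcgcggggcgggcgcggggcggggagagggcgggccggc

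A match of letters is a description of these windows and not a measured binding site, and no binding was measured here.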

How the data were processed

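RNA of HEL cells was measured in 1 DMSO and 1 L1 library, grouped by the treatment label. Per the labels the reads were trimmed with fastp 2.0 and aligned to hg38 with HISAT2 2.1.0, and StringTie is also named. The counting program, its strand setting, the annotation version and the treatment of reads with several matches are not given in the sources used here. The authors deposited raw counts for 61806 Ensembl genes, without normalization, and FPKM for 13924 genes, which start at 1.01 CPM. The FPKM tables also hold 1 row without a gene name or value, which was left out. FPKM ratios equal count ratios times 1 constant within 1.68e-08 on the log2 scale.

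TMM factors came from edgeR 4.0.16 (R 4.3.3), with an effective size ratio of DMSO over L1 of 1.16. Size factors of DESeq2 1.42.0 served as an alternative scaling. No count model was fitted, since there is 1 library per condition. Intervals, lists and figures were made with scipy 1.17.1, pandas 2.3.3, numpy 2.4.6, matplotlib 3.10.9 and Biopython 1.88 under Python 3.11.15. Lists carry a prior count of 2 and a minimum of 10 counts in at least 1 library. The scripts were tested on simulated data. Exons, positions, alignments and shared 31-base words came from GENCODE release 29, which holds 58254 of the gene identifiers. The other 3552 could not be placed, so whether one of them overlaps the 9 genes was not tested. All 139 pathway genes were matched by name.

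Named were all 9 genes, their copies and overlapping genes, the highest and lowest gene of each of 11 lists among those with at least 100 counts, every pathway gene with at least 100 counts past 2-fold, and the 3 pathway genes nearest in ratio to the lowest and to the highest of the 9. Values of some named genes are not reported here. RPTOR, PIK3CD, FOXO1, PIK3R3 and the pathway genes under 100 counts were named to complete a family or a count, and the neighbours of PDPK1 after its value was seen. The 9 genes and the lists were chosen with earlier results of these data known. Alternatives were other scalings, the deposited FPKM, prior counts, minimum counts, thresholds, protein-coding genes, and sums with copies or overlapping genes. Sums with genes on either strand, with genes sharing at least 300 words and over overlapping pathway genes were chosen after seeing the data.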

Additional observations from a re-analysis of the deposited data

How the results depend on the processing

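No paired analysis was possible because the DMSO and L1 conditions have a single library each, and for the same reason no replicate could be omitted. Of 55 alternative values for the 9 genes, 51 stayed within the counting interval and none of those with an interval that left out 0 changed direction. The other 4 belong to PDPK1. No gene overlaps any of the 9 on its own strand, so the planned sum over such genes gave no value and is not counted. The log2 ratio of PDPK1, -1.90, became -1.23 on the scale of log2(FPKM + 1), which pulls low genes toward 0 by construction, -1.69 with its copy added, -1.55 with genes overlapping on either strand and -1.04 with genes sharing at least 300 words. PDPK1 was the 1 gene of the 9 past the threshold in all 13 alternatives of that count, and the median of the 9 ranged from -0.043 to 0.038 over 8 alternatives. The median of the pathway genes ranged from -0.014 to 0.066 over 11.

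The number of pathway genes past 2-fold, 10, became 3 with log2(FPKM + 1), 6 with log2(FPKM + 0.1), 28 at 1.5-fold, 3 at 3-fold, 6 with the whole interval past 2-fold and 6 with at least 100 counts. Over all genes the number, 2166, became 352 with log2(FPKM + 1), 646 with log2(FPKM + 0.1), 4571 at 1.5-fold, 912 at 3-fold, 897 with the whole interval, 5355 with no minimum, 1185 with 10 counts in both libraries, 748 with at least 100 counts and 1190 over protein-coding genes. The depth bounds the counting error alone, and separate cultures were not compared. No other scaling moved the median of all genes by more than 0.049 on the log2 scale.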
